A study of Bos taurus with 9 samples.

Results

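ND1, ND2, ND3, ND4, ND4L, ND5 and ND6 are the subunits of respiratory complex I that are encoded in mitochondrial DNA (mtDNA). Their FPKM values were followed here in 9 RNA-seq libraries of cultured bovine endometrial cells (BEND). The genes were taken by name, and all 7 were found among the 17162 genes of the expression table. They were chosen with a low level after interferon-tau (IFNT) already known, so that the values of the IFNT-treated libraries are a description, from which no test is read for these genes.

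Complex I (NADH:ubiquinone oxidoreductase) passes electrons from NADH to ubiquinone and pumps protons across the inner mitochondrial membrane. Its membrane arm is built around the ND proteins, whereas its other subunits are encoded in the nucleus and imported. The mtDNA is transcribed as long RNAs that cover most of each strand, and most mRNAs are released from them by cutting at the tRNAs between genes. Where genes overlap, as ND4L and ND4 do and ATP8 and ATP6 do, no tRNA lies between them. ND6 is the only protein gene read from the light strand, and the other protein genes are read from the heavy strand. Ruminant embryos release IFNT, a type I interferon, around the time the mother recognises the pregnancy, and the endometrium meets it while exposed to estradiol (E2) and progesterone (P4).

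The 9 libraries were 3 of untreated cells (CON), 3 of cells given 1 nM E2 and 100 nM P4 for 12 h (GA), and 3 of cells exposed to these hormones for 12 h and next to IFNT at 100 ng/mL, also for 12 h (GB). Whether E2 and P4 stayed in the medium during the IFNT step is not stated. All cells are labelled as wild-type primary epithelial cells and were grown in the same serum-containing medium. When CON and GA cells were collected relative to GB cells, and from how many animals the cells came, is not given in the sources used here, so that IFNT treatment and culture time cannot be told apart. FPKM, a fragment count scaled to exon length and to the mapped reads of the library, is a level per length, and the values describe RNA that was retained by poly-T beads.

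The epithelial label was not borne out by the RNA of the marker genes. The paper reports positive immunofluorescence for cytokeratin, a protein measure that these libraries do not give. All 6 measured epithelial markers (KRT7, KRT8, KRT18, KRT19, CDH1 and CLDN4) had a mean under 1 FPKM, and their summed level was 0.43 to 1.53 FPKM (CON), 0.78 to 1.61 FPKM (GA) and 0.96 to 1.90 FPKM (GB). KRT7 was listed at 0 in 6 of 9 libraries. All 9 stromal fibroblast markers were above 1 FPKM. Summed, these stromal markers reached 16786 to 17378 FPKM in CON and 16978 to 17372 FPKM in GA, and a lower 15233 to 15346 FPKM in GB. The sum was carried by VIM, COL1A1 and COL1A2, and single markers did not move together, with a log2FC of GB vs. CON of −0.22 for VIM and 0.38 for PDGFRA (limma adjusted p = 0.0034 and 0.00042). Their part in the results below was not tested. The 4 endothelial markers together did not exceed 3.34 FPKM, and the 3 measured immune markers together lay between 21.2 and 26.9 FPKM. The treatments were visible in the libraries as labelled, with the interferon-stimulated gene ISG15 at 1.76 to 7.01 FPKM without IFNT and 5536 to 5616 FPKM in GB, and the estrogen-responsive gene GREB1 at 0.09 to 0.38 FPKM in CON and 2.03 to 2.51 FPKM in GA and GB. MX1 averaged 6.61, 7.45 and 1572 FPKM in CON, GA and GB, and RSAD2 0.35, 0.30 and 855 FPKM. PGR, listed as a hormone check, averaged 11.4, 15.3 and 23.7 FPKM, so it was also higher in GB than in GA. The FPKM of all genes summed to between 1395622 and 1442723 per library. In bulk RNA, a smaller number of expressing cells and less RNA per cell cannot be told apart.

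ND2, ND4 and ND5 are the antiporter-like subunits that form the proton channels of the membrane arm. The ND2 level was 1839, 1648 and 1883 FPKM in the CON libraries, 1989, 2021 and 2043 FPKM in GA, and 326, 325 and 347 FPKM in GB. The ND4 level was 2383, 2124 and 2449 FPKM in CON, 2462, 2579 and 2616 FPKM in GA, and 286, 278 and 311 FPKM in GB. The ND5 level was 2243, 1933 and 2247 FPKM in CON, 2281, 2390 and 2450 FPKM in GA, and 426, 440 and 484 FPKM in GB. For each of these genes every GB library lay far below every other library, CON replicate 2 was the lowest CON library, and all GA libraries were above all CON libraries.

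ND1, ND3, ND4L and ND6 lie where the membrane arm meets the peripheral arm or next to that junction. ND1, which helps to form the ubiquinone-binding channel, was measured at 87.0, 68.9 and 90.5 FPKM in CON, 82.7, 89.0 and 106 FPKM in GA, and 18.9, 20.7 and 23.2 FPKM in GB. The ND3 level, of a small subunit at the same junction, was 1236, 1335 and 1243 FPKM in CON, 1265, 1435 and 1221 FPKM in GA, and 173, 186 and 184 FPKM in GB. ND1 and ND3 overlapped between CON and GA and were lowest in the GB libraries.

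ND4L, a small subunit between ND6 and ND2 in the membrane arm, was measured at 3119, 3067 and 2691 FPKM in CON, 3171, 3232 and 2898 FPKM in GA, and 323, 331 and 356 FPKM in GB. ND6, which takes part in coupling the ubiquinone site to the pumps, was measured at 2312, 1569 and 2388 FPKM in CON, 2508, 2599 and 2815 FPKM in GA, and 491, 543 and 632 FPKM in GB. ND4L overlapped between CON and GA, whereas ND6 was higher in every GA than in every CON library, with CON replicate 2 well below the other CON libraries.

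**Figure D1:**
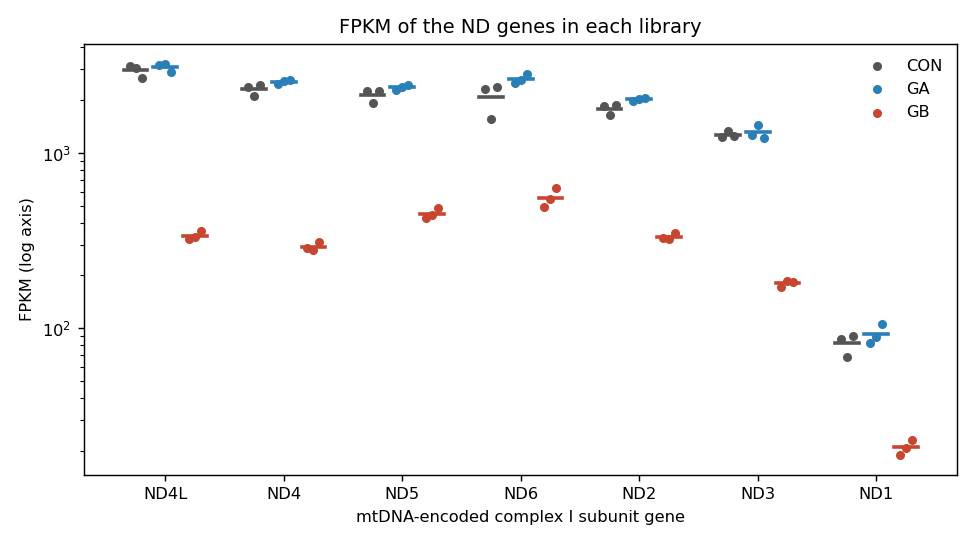
FPKM (log axis) of the 7 ND genes in each of the 9 libraries, ordered by mean level in CON; points are libraries (grey CON, blue GA, red GB) and short lines are group means. For every gene the 3 GB libraries lie below the 6 libraries without IFNT, and ND1 lies far below the other genes in all groups.

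The 7 ND genes together made up 12652 ± 794 FPKM in CON (SD, n = 3), 14085 ± 298 FPKM in GA and 2168 ± 152 FPKM in GB. The summed level in GB was thus 17.1% of that in CON and 15.4% of that in GA. As a share of the FPKM of all genes, they took 0.899% (CON), 0.978% (GA) and 0.154% (GB).

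Gene by gene, the level that remained in GB differed. By these means ND4L had the deepest fall, from 2959 ± 233 FPKM (SD, n = 3) in CON and 3100 ± 178 FPKM in GA to 337 ± 17.3 FPKM in GB, which is 11.4% of CON and 10.9% of GA. ND4 followed at 292 ± 17.2 FPKM in GB, 12.6% of CON and 11.4% of GA. ND3 stood at 181 ± 6.94 FPKM, 14.2% of CON and 13.8% of GA. These 3 genes lie next to each other on the mtDNA, apart from a tRNA gene, and they kept the smallest shares of their level.

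ND2 stood at 332 ± 12.6 FPKM in GB, 18.6% of CON and 16.5% of GA. ND5 stood at 450 ± 30.3 FPKM, 21.0% of CON and 19.0% of GA. ND1 stood at 20.9 ± 2.16 FPKM, 25.5% of CON and 22.6% of GA. ND6 kept 26.6% of CON and 21.0% of GA, with 555 ± 71.6 FPKM in GB against 2090 ± 453 FPKM in CON and 2641 ± 158 FPKM in GA.

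On the scale of log2(FPKM + 0.5), the log2 fold change (log2FC) of GB vs. CON was −3.13 for ND4L (SE 0.068), −2.99 for ND4 (SE 0.063), −2.81 for ND3 (SE 0.064), −2.43 for ND2 (SE 0.053), −2.25 for ND5 (SE 0.070), −1.94 for ND1 (SE 0.13) and −1.89 for ND6 (SE 0.15). For GB vs. GA, which shares the GB libraries, the log2FC was −3.20, −3.13, −2.85, −2.60, −2.40, −2.12 and −2.25 in the same order of genes. Within libraries, the ratios of ND4L to ND4, ND4 to ND3 and ND1 to ND6, neighbours in this order, overlapped between GB and CON. Between GB and GA the ratios of ND4L to ND4 and ND1 to ND6 overlapped and that of ND4 to ND3 did not. The ratios of ND3 to ND2, ND2 to ND5 and ND5 to ND1 did not overlap in either comparison. These pairs were taken from the order in GB vs. CON, so nothing is read from their overlap. The median log2FC of the 7 genes was −2.43 in GB vs. CON, where that of all 12578 genes tested was −0.016, and −2.60 in GB vs. GA, where that of all genes was −0.075.

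By description only, all 7 ND genes lay past the limits of a differentially expressed gene (DEG, |log2FC| above 1 and adjusted p under 0.05) in the lower direction, as 1.07% of all genes tested did for GB vs. CON and 0.978% for GB vs. GA. The libraries of all 7 did not overlap, as for 23.9% of all genes in the lower direction relative to CON and 31.0% relative to GA. Nothing is read from these counts, since the members were chosen on these comparisons. Ranked by log2FC from the lowest among all genes tested, ND4L was at rank 2, ND4 at 4, ND3 at 7, ND2 at 10, ND5 at 13, ND1 at 23 and ND6 at 26 in GB vs. CON.

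This order changed with the fit. ND4L had the lowest log2FC of GB vs. CON in 21 of 23 alternatives, and ND4 in the other 2, which include the GC content of the reads of each library. With this covariate alone the log2FC was −3.23 for ND4, −3.05 for ND4L, −2.63 for ND6, −2.55 for ND5 and −2.52 for ND1. ND6 was then at place 4 from the lowest, beside ND2 (−2.63) and below ND5. The 7 genes spanned 0.705 on the log2 scale in place of 1.24. Without CON replicate 2, ND1 (−2.06) and ND6 (−2.09) changed places. In GB vs. GA, ND4L was lowest and ND1 highest in all 23 alternatives. Many of the 23 could not change the order in either comparison. The filters, the variance trend, the 2-group fit, the replicate block and libraries left out of the group not compared leave the log2FC unchanged. Scaling by a single factor per library shifts all genes nearly alike. The counts of alternatives thus overstate how far the order was probed. In GB vs. GA the span was 1.09, and it lay between 0.992 and 1.23 over all alternatives.

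The ranking of the ND genes by level was not the same in the 3 groups. In CON the order was ND4L, ND4, ND5, ND6, ND2, ND3 and ND1, with overlapping libraries between ND4 and ND5, ND5 and ND6, and ND6 and ND2. In GA the order was ND4L, ND6, ND4, ND5, ND2, ND3 and ND1, and only ND6 and ND4 overlapped. In GB, ND6 and ND5 came first, followed by ND4L, ND2, ND4, ND3 and ND1, and only ND4L and ND2 overlapped. ND4L thus moved from the highest ND level to the third, and ND4 from the second in CON to the fifth in GB.

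ND1 was the lowest member throughout. Its level ranked 2475 among all genes in CON and 6454 in GB, whereas the other 6 genes ranked between 65 and 181 in CON. The mean of ND3, the next lowest, was 15.5 times that of ND1 in CON, 14.1 times in GA and 8.65 times in GB.

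Ratios of ND genes within a library do not depend on the scaling between libraries. The log2 ratio of ND4L to ND1 was 5.16, 5.47 and 4.89 in the CON libraries, 5.25, 5.17 and 4.77 in GA, and 4.06, 3.97 and 3.91 in GB. The log2 ratio of ND4 to ND1 was 4.77, 4.94 and 4.75 in CON, 4.89, 4.85 and 4.62 in GA, and 3.88, 3.72 and 3.72 in GB. Both ratios were lower in all GB libraries, by 1.19 and 1.05 on average relative to CON.

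The log2 ratio of ND6 to the median of the other 6 genes was 0.187, −0.186 and 0.215 in CON, 0.236, 0.242 and 0.331 in GA, and 0.691, 0.852 and 0.944 in GB, without overlap. The log2 ratio of ND6 to ND5, the neighbouring gene on the opposite strand, averaged −0.057 ± 0.213 in CON (SD, n = 3), 0.153 ± 0.042 in GA and 0.297 ± 0.090 in GB. The log2 ratio of ND4L to ND4, which adjoin on the heavy strand, averaged 0.351 ± 0.200 in CON, 0.279 ± 0.116 in GA and 0.208 ± 0.036 in GB, with overlapping groups. Whether reads were assigned by strand is not given in the sources used here, so that ND6 reads and antisense reads of the heavy-strand transcript at this place cannot be separated.

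Between GA and CON the ratios were compared by an exact permutation test (two-sided, n = 3 against 3), which cannot give a p below 0.1 and so cannot pass a threshold of 0.05. The p was 0.1 for ND6 to ND5 and for ND6 to the median of the others, both higher in every GA than in every CON library, and 0.7, 0.8 and 0.6 for ND4L to ND1, ND4 to ND1 and ND4L to ND4. Adjusted over the 5 ratios, the permutation p was 0.25 for the first pair and 0.80 for the others.

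**Figure D2:**
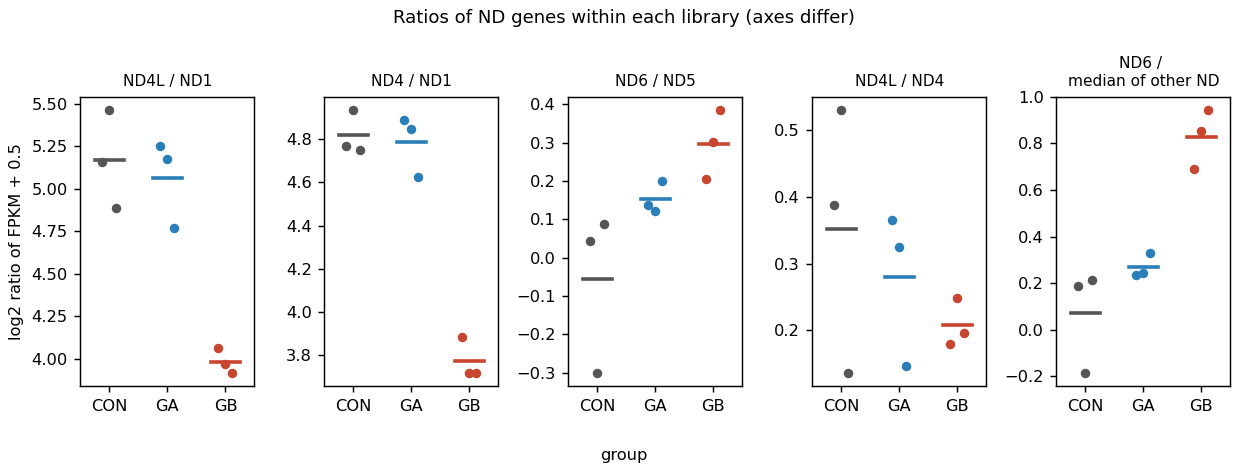
Log2 ratio of FPKM + 0.5 between ND genes within each library, by group; points are libraries, lines are group means, and the vertical axes differ between panels. ND4L/ND1 and ND4/ND1 are lower in all 3 GB libraries, the ratio of ND6 to the median of the other ND genes is higher in all 3, and ND4L/ND4 overlaps among the groups.

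The size of the fall was set against abundance. Over the 7 genes, the Pearson r between the log2FC of GB vs. CON and the log level in CON was −0.513 and Spearman's rho was −0.571. For GB vs. GA and the level in GA, r was −0.560 and rho was −0.500. The more abundant ND genes thus tended to have the deeper fall, but the 7 points share libraries and transcripts, the level is a part of the fold change, and no test is given.

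The Pearson r rested largely on ND1. Without ND1, r over 6 genes was −0.203 for GB vs. CON and −0.099 for GB vs. GA. Spearman's rho was then −0.486 and −0.2, so that the rank relation in GB vs. CON changed less. With the level in GB, r was −0.267 and rho 0.214 for GB vs. CON, and r was −0.361 and rho 0.0 for GB vs. GA. With the level taken from the group outside the contrast, r was −0.473 and rho −0.321 for GB vs. CON, and r was −0.594 and rho −0.679 for GB vs. GA. Over the 13 protein genes of mtDNA, r was −0.257 and rho −0.060 for GB vs. CON. The values for GB vs. GA were −0.064 and −0.038. ND4, ND5 and ND6 show the spread at similar abundance, with means of 2319, 2141 and 2090 FPKM in CON and 12.6%, 21.0% and 26.6% of them left in GB. With the GC content as a covariate their log2FC of GB vs. CON was −3.23, −2.55 and −2.63, so that ND5 and ND6 changed order.

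**Figure D3:**
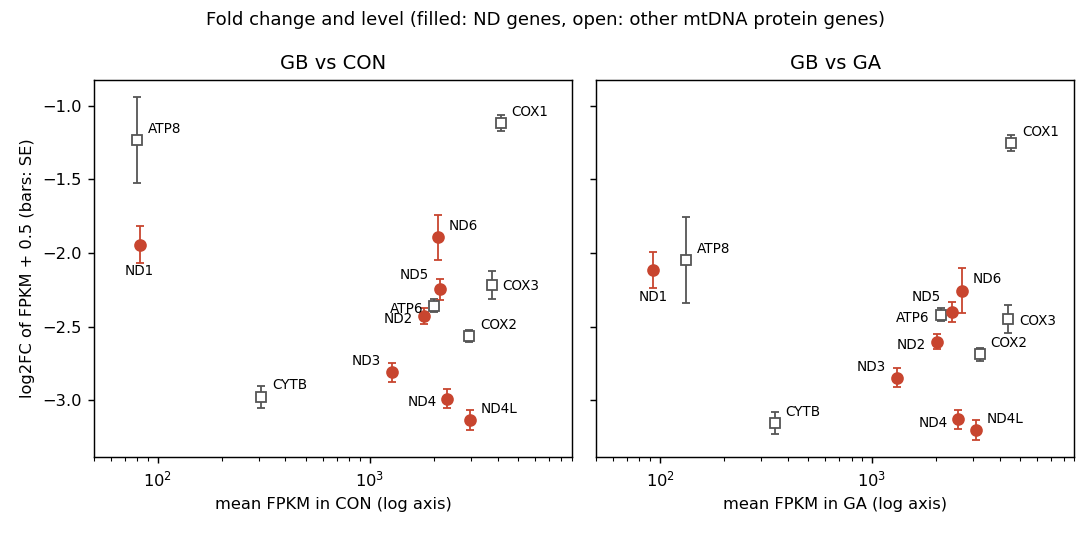
Log2FC of GB vs. CON (left) and GB vs. GA (right) against the mean FPKM in CON or GA (log axis) for the 13 protein genes of mtDNA; filled circles are the 7 ND genes, open squares the other 6, and bars the SE. ND4, ND5 and ND6 have similar levels in CON and log2FC from −2.99 to −1.89, and COX1, the most abundant gene, lies highest.

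The effect of E2 and P4 alone was tested in GA vs. CON, a contrast on which the genes were not chosen. All 7 ND genes had a slightly higher mean in GA, and 0 of 7 passed an adjusted p of 0.05 in limma, as 0.453% of all genes did in either direction. The log2FC was 0.36 for ND6 (SE 0.15, limma adjusted p = 0.242), 0.17 for ND2 (SE 0.053, adjusted p = 0.144), 0.17 for ND1 (SE 0.13, adjusted p = 0.474), 0.15 for ND5 (SE 0.070, adjusted p = 0.270), 0.14 for ND4 (SE 0.063, adjusted p = 0.259), 0.069 for ND4L (SE 0.068, adjusted p = 0.606) and 0.037 for ND3 (SE 0.064, adjusted p = 0.777). An unadjusted p under 0.05 was reached by 2 of 7, ND2 and ND6, and by 19.3% of all genes.

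The median log2FC of the ND genes in GA vs. CON was 0.15, and that of all genes was 0.061. ND2, ND4, ND5 and ND6 did not overlap between the groups and were higher in GA, as 18.6% of all genes were. The median was −0.084 with the GC content as a covariate and 0.080 without CON replicate 2. CON replicate 2 was the lowest CON library for ND1, ND2, ND4, ND5 and ND6 and the highest for ND3, and GA replicate 3 was the highest GA library for the same 5 genes and the lowest for ND3 and ND4L. The deviation from the group mean in CON replicate 2 ranged from −24.9% for ND6 to 5.0% for ND3.

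The other 6 protein genes of mtDNA were set beside the ND genes. COX1, COX2 and COX3 encode subunits of cytochrome c oxidase, ATP6 and ATP8 of ATP synthase, and CYTB of the cytochrome bc1 complex. Their log2FC in GB vs. CON was −2.97 for CYTB (SE 0.075), −2.56 for COX2 (SE 0.043), −2.36 for ATP6 (SE 0.044), −2.22 for COX3 (SE 0.096), −1.23 for ATP8 (SE 0.29) and −1.12 for COX1 (SE 0.055). The ND genes, from −3.13 to −1.89, thus lay within the span of the other mtDNA genes except for ND4L, which was lower, and ND4, which differed from CYTB by less than the SE, and no ND gene fell as little as COX1 or ATP8. In sum the 6 genes kept 27.7% of their CON level and 24.9% of their GA level.

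COX1 was the most abundant protein gene of mtDNA and the one that kept the largest share. Its level was 4250, 3813 and 4363 FPKM in CON, 4461, 4519 and 4617 FPKM in GA, and 1821, 1952 and 1937 FPKM in GB, so that it stayed above the level of every ND gene in GB. ATP8 resembled ND1 in its low level, with 48.7, 67.1 and 124 FPKM in CON, 106, 132 and 160 FPKM in GA, and 30.4, 34.8 and 28.9 FPKM in GB. ATP8 and ATP6 overlap on the mtDNA, as do ND4L and ND4, and reads at such places can be shared between them in the counting. Copies of mtDNA in the nuclear genome are another place where reads of these genes may be assigned. No rRNA or tRNA gene of mtDNA is analysed here.

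**Figure D4:**
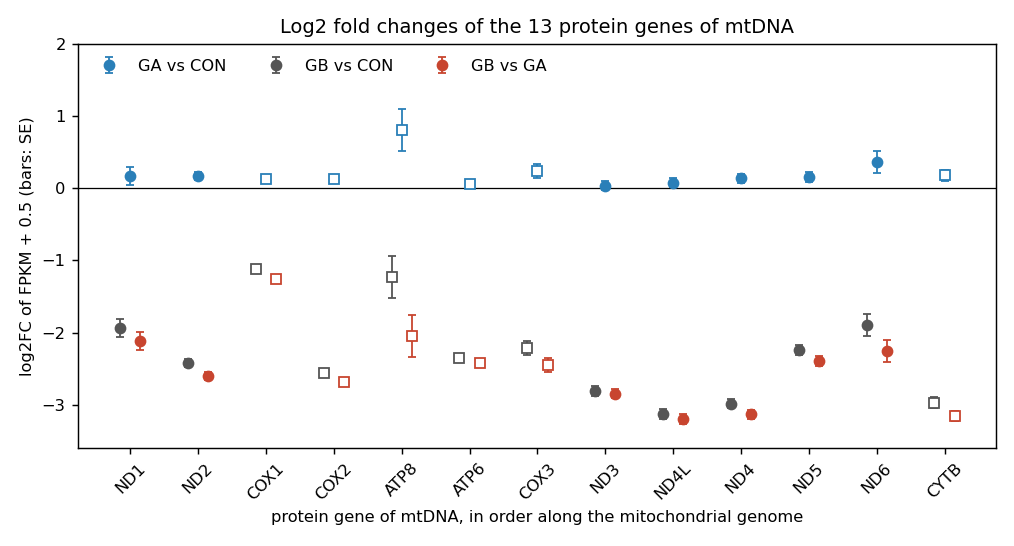
Log2FC of FPKM + 0.5 for the 13 protein genes of mtDNA, in their order along the mitochondrial genome, for GA vs. CON (blue), GB vs. CON (grey) and GB vs. GA (red); filled circles are the ND genes, open squares the others, and bars the SE. ND3, ND4L and ND4 lie next to each other between −3.20 and −2.81 in the comparisons with GB, ND5 and ND6 lie higher, and COX1 has the smallest change of the 13 genes in these comparisons.

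Genes with the most similar profile were sought among all genes tested, as the smallest root mean square difference from the mean ND profile over the 9 libraries, on the log2 scale and centred per gene. The difference was 0.039 for ND2 and 0.302 for ND4L, the nearest and the farthest member. Outside the ND genes the closest were COX2 (0.084), ATP6 (0.119), COX3 (0.137), CYTB (0.239) and RAB18 (0.294). ATP8 and COX1 came at ranks 23 and 31, behind a number of nuclear genes.

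The 3 closest nuclear genes were RAB18, FITM2 and FAM92A. RAB18, a small GTPase found on lipid droplets and the endoplasmic reticulum, was at 136, 128 and 121 FPKM in CON, 142, 143 and 132 FPKM in GA, and 34.0, 34.4 and 31.4 FPKM in GB. FITM2, a protein of the endoplasmic reticulum needed for lipid droplet formation, had a log2FC of −1.99 for GB vs. CON and −1.95 for GB vs. GA. FAM92A, a BAR domain protein, had a log2FC of −1.84 and −1.99. These genes were picked for likeness to the profile, which is set mainly by the GB libraries.

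The nuclear-encoded partners of the ND proteins were measured in the same libraries. Of the 44 complex I subunits listed here, 37 are nuclear, 7 of them core subunits and 30 accessory subunits, and all 37 were tested. Their summed level was 9520 ± 219 FPKM in CON (SD, n = 3), 9612 ± 189 FPKM in GA and 9079 ± 84.3 FPKM in GB, so that GB stood at 95.4% of CON, where the summed ND level stood at 17.1%. None of the 37 was a DEG in limma, where 0.0716% of all genes were DEGs for GA vs. CON, 4.01% for GB vs. CON and 3.64% for GB vs. GA, although 8, 10 and 12 of the 37 had an unadjusted p under 0.05, against 19.3%, 43.8% and 40.0% of all genes.

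In GB vs. CON, 5 of the 37 nuclear subunits were lower and 1 was higher at an adjusted p under 0.05 in limma, where 17.3% of all genes were lower and 16.2% higher. The median log2FC of the 37 was −0.062. NDUFS7, a core subunit that holds an iron-sulfur cluster next to the ubiquinone site, fell from 107, 116 and 118 FPKM in CON to 88.5, 79.7 and 76.9 FPKM in GB (log2FC −0.48, SE 0.065, limma adjusted p = 0.00055). NDUFV1, the core subunit that binds NADH and FMN, had a log2FC of −0.27 (SE 0.059, limma adjusted p = 0.0080), and the accessory subunit NDUFB4 one of −0.31 (SE 0.089, limma adjusted p = 0.027). NDUFB10, an accessory subunit of the membrane arm, rose from 284, 271 and 258 FPKM to 319, 314 and 322 FPKM (log2FC 0.23, SE 0.043, limma adjusted p = 0.0029). With the GC content as a covariate none of these 4 passed, at a log2FC of −0.39, −0.038, −0.21 and 0.21. The share of all genes passing then went from 33.5% to 11.7% in GB vs. CON, and from 29.0% to 32.4% in GB vs. GA. Whether the GC content differed between CON and the treated groups was not tested, so this covariate and the group difference may not be separable. NDUFB4 also did not pass without CON replicate 2 (−0.27), CON replicate 3 (−0.24), GB replicate 1 (−0.32) or GB replicate 2 (−0.25), or in a fit of the 2 groups alone.

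In GB vs. GA, 8 of 37 were lower and 1 was higher, where 19.2% of all genes were lower and 9.87% higher, and the median log2FC was −0.13. NDUFS7 fell by 0.47 on the log2 scale (limma adjusted p = 0.00074), NDUFB4 by 0.40 (adjusted p = 0.0094) and NDUFS6, an accessory subunit that holds a zinc ion, by 0.33 (adjusted p = 0.0033). NDUFB10 rose by 0.25 (adjusted p = 0.0023). These 4 calls held under every alternative. The count was 5 of 37 with median-of-ratios scaling, where 26.9% of all genes passed in place of 29.0%.

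In GA vs. CON, 0 of 37 passed the adjusted p in limma and 8 had an unadjusted p under 0.05, against 0.453% and 19.3% of all genes. Their median log2FC was 0.038. The lowest unadjusted p were those of NDUFS6 (log2FC 0.26, limma adjusted p = 0.088) and NDUFB3 (log2FC 0.39, limma adjusted p = 0.119).

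Complex I is put together by assembly factors, which are not part of the finished enzyme. Of 20 listed, 3 rose and 3 fell in GB relative to CON, and 1 rose and 4 fell relative to GA, where 16.2% of all genes were higher and 17.3% lower than in CON, and 9.87% higher and 19.2% lower than in GA. The medians were 0.067 and −0.039. None was a DEG in limma, and 10 and 6 of 20 had an unadjusted p under 0.05, against 43.8% and 40.0% of all genes. NDUFAF5, a hydroxylase that acts on NDUFS7, was at 13.6, 9.57 and 10.8 FPKM in CON, 11.7, 12.6 and 13.4 FPKM in GA, and 6.82, 7.53 and 7.61 FPKM in GB. It fell by 0.58 (limma adjusted p = 0.0054) relative to CON and by 0.74 (adjusted p = 0.0018) relative to GA, and stayed past the adjusted p under every alternative, with a log2FC relative to CON from −1.22 (GC covariate with replicate block) to −0.45. With the GC covariate, with or without the block, it was past the limits of a DEG.

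NDUFAF8, which supports NDUFAF5, had a log2FC of −0.60 (limma adjusted p = 0.00074), and ECSIT one of −0.29 (adjusted p = 0.0054) in GB vs. CON. NDUFAF4 rose by 0.52 (adjusted p = 0.015), TMEM70, which also serves ATP synthase assembly, by 0.41 (adjusted p = 0.013) and NDUFAF6 by 0.36 (adjusted p = 0.010). Of these 5, none passed with the GC content as a covariate, at a log2FC of −0.62, −0.35, 0.38, 0.33 and 0.37, and NDUFAF4 did not pass without CON replicate 2 (0.44) or without GB replicate 3 (0.44).

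In GB vs. GA, DMAC1, a factor for the distal membrane arm, fell by 0.61 (limma adjusted p = 0.013), TIMMDC1, a factor for the membrane arm, fell by 0.49 (adjusted p = 0.020), and NDUFAF4 rose by 0.54 (adjusted p = 0.015). DMAC1 did not pass without GA replicate 2 (−0.55), NDUFAF4 without GB replicate 3 (0.46), or TIMMDC1 without GA replicate 2 (−0.49), GA replicate 3 (−0.45) or GB replicate 1 (−0.39). In GA vs. CON, 0 of 20 passed in limma and 4 had an unadjusted p under 0.05, against 0.453% and 19.3% of all genes. Their median was 0.17. The lowest p were those of TIMMDC1 (log2FC 0.61, limma adjusted p = 0.077; 0.049 with the replicate block and 0.037 without CON replicate 3, where the log2FC was 0.75) and NDUFAF8 (log2FC −0.36, limma adjusted p = 0.090).

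The genes that make, process, stabilise and degrade mitochondrial RNA or copy mtDNA were taken as a list of 25. Relative to CON, 7 rose and 1 fell in GB, and relative to GA, 3 rose and 5 fell, where 16.2% and 17.3% of all genes were higher and lower than in CON and 9.87% and 19.2% than in GA. The medians were 0.066 and −0.030. PNPT1, the polynucleotide phosphorylase of mitochondria and a known interferon-stimulated gene, was the only DEG. It was at 21.2, 17.3 and 20.9 FPKM in CON, 20.9, 22.2 and 21.7 FPKM in GA, and 129, 124 and 132 FPKM in GB. Its log2FC was 2.67 in GB vs. CON (SE 0.077, limma adjusted p = 7.5e-09) and 2.54 in GB vs. GA (limma adjusted p = 1.1e-08), and 2.94% and 2.66% of all genes were DEGs in the higher direction.

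POLRMT, the RNA polymerase of mitochondria, rose from 15.6, 16.1 and 13.6 FPKM in CON to 19.0, 20.8 and 20.4 FPKM in GB (log2FC 0.40, limma adjusted p = 0.0036) and by 0.39 relative to GA (adjusted p = 0.0053). TFB2M, which opens the mtDNA promoters together with POLRMT, fell by 0.39 relative to CON (adjusted p = 0.0023) and by 0.48 relative to GA (adjusted p = 0.00082). PRORP, the catalytic subunit of mitochondrial RNase P, which cuts at the 5′ ends of tRNAs, rose by 0.39 relative to CON (adjusted p = 0.0096). With the GC content as a covariate POLRMT (0.47) and PRORP, or KIAA0391 (0.35), did not pass in GB vs. CON, and TFB2M did not pass when the replicate block was added to it.

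In GB vs. GA, FASTKD1, an RNA-binding protein of mitochondria, fell by 0.49 (limma adjusted p = 0.0052), and SSBP1, which binds single-stranded mtDNA, fell by 0.31 (adjusted p = 0.0078). MTPAP, the poly(A) polymerase of mitochondria, rose by 0.35 (adjusted p = 0.032), and did not pass without GA replicate 2 (0.31), GA replicate 3 (0.32), GB replicate 1 (0.35) or GB replicate 3 (0.26). In GA vs. CON, 0 of 25 passed in limma and 4 had an unadjusted p under 0.05, against 0.453% and 19.3% of all genes. Their median was 0.084. The lowest p were those of PRORP (log2FC 0.42, limma adjusted p = 0.080) and TRMT10C, another subunit of mitochondrial RNase P (log2FC 0.40, limma adjusted p = 0.114).

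**Figure D5:**
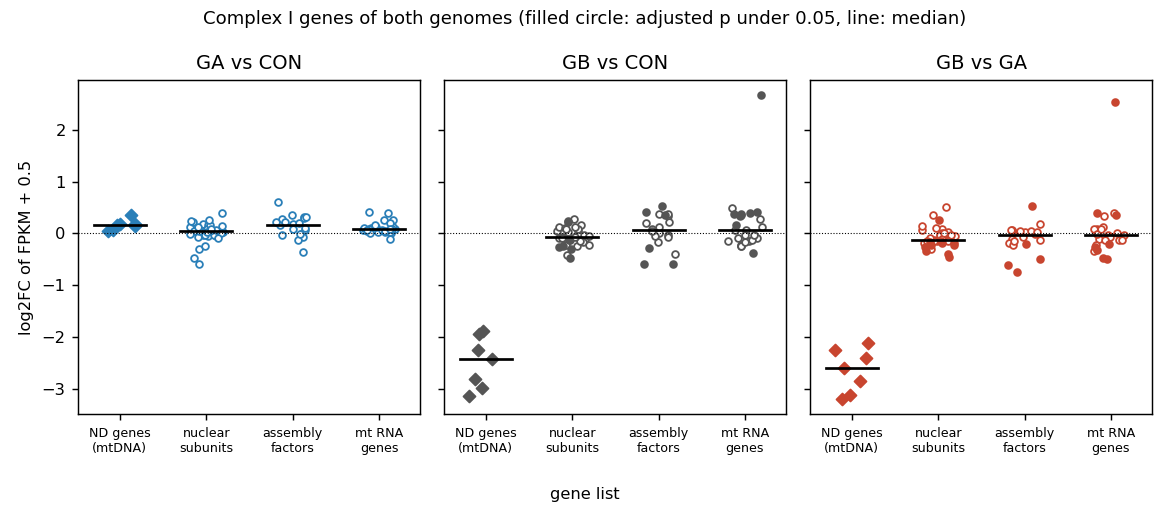
Log2FC of FPKM + 0.5 of the 7 ND genes (diamonds, drawn without calls), the 37 nuclear complex I subunits, 20 assembly factors and 25 mitochondrial RNA genes (circles, filled where the limma adjusted p is under 0.05) in GA vs. CON, GB vs. CON and GB vs. GA; black lines are medians. In the comparisons with GB the ND genes lie between −3.20 and −1.89, the nuclear subunits and assembly factors lie between −0.74 and 0.54, and the single point above 2 is PNPT1.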

How the data were processed

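Poly(A) RNA of 9 libraries was sequenced by the authors with a directional kit. According to the submitters' processing notes and the methods, reads were trimmed with fastp 0.21.0, rRNA reads were removed with Bowtie2, the rest were aligned with HISAT2 2.2.1 to ARS-UCD1.2, and genes were counted with RSEM 1.3.3. The authors' test was DESeq2 1.34.0 on read counts, which were not used here. Deposited were FPKM values that the authors computed for each gene, rounded to 2 decimals, 1 column per library. Low values in steps of 0.01 gave no clear unit of 1 read, so the number of reads behind a value is unknown and no counting interval is given. The sources used here do not give the annotation release, the gene lengths or whether strand was used. Differences in these lengths bear most on short genes such as ND3 and ND4L.

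Values were analysed as log2(FPKM + 0.5) in R 4.3.3 with limma 3.58.1 (1 model over 9 libraries, variance trend, Benjamini-Hochberg adjustment). Of 17162 genes, 12578 had a mean of at least 0.5 FPKM and were tested, all ND genes among them. A DEG had |log2FC| above 1 and an adjusted p under 0.05. The procedure was tested on simulated data with independent noise and shifts above the log2FC limit of a DEG. Smaller shifts were thus not probed. Exact permutation tests used scipy 1.17.1 under Python 3.11.15, with plots from matplotlib 3.10.9. The p-values measure the spread between these 3 libraries per group, which may be technical.

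The ND genes and the gene lists were chosen with earlier results of these data known, so the lists are not independent evidence. Named were the 13 protein genes of mtDNA, the treatment genes, part of the marker genes and the genes most alike in profile. From the other lists every DEG was named. So were up to 3 genes at each end of log2FC among those with adjusted p under 0.05. Where fewer than 2 passed, those with the 2 lowest p were named. PRORP is listed under its older symbol KIAA0391, matched through RefSeq synonyms. Alternatives were other pseudocounts (1 and 0.1), no filter or a filter at 1 FPKM, TPM, median-of-ratios (also without mtDNA genes) and quantile scaling, no variance trend, a fit of 2 groups, a replicate block, the GC content of the reads per library (from the study's read statistics) with and without the block, and each library left out. Added after seeing the data were the level in the other group, leaving out ND1, and leaving out CON replicate 2 and GA replicate 3 together. EPCAM and PTPRC were not analysed here.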

Additional observations from a re-analysis of the deposited data

How the results depend on the processing

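In GA vs. CON, 0 of 7 ND genes passed under any of 23 alternatives. The comparisons with GB chose these genes, so that their calls there say nothing of stability. Same-numbered libraries had deviations correlated at −0.031 to 0.077, and differently numbered libraries at −0.068 to 0.056. These values cannot show whether the numbers mark paired cultures. With the replicate block the ND median in GB vs. CON was −2.43. In GA vs. CON, 1 nuclear subunit and 1 assembly factor then passed, as did 0.421% of all genes. The ND median in GA vs. CON was −0.084 with the GC covariate and −0.019 with the GC covariate and the block. In GB vs. CON it was −2.63 and −2.61. In GA vs. CON single genes changed sign: ND1 to −0.37 (GC), −0.29 (GC and block) and −0.048 (without CON replicate 2 and GA replicate 3), ND2 to −0.019 (GC), ND4 to −0.084 and −0.019, ND5 to −0.13 and −0.11, ND6 to −0.33 and −0.32 (GC, and GC and block), and ND3 to −0.023 (median-of-ratios, both versions), −0.0036 (quantile) and −0.032 (without GA replicate 2, with up to 0.085 over the libraries left out). Of the nuclear subunits, 2 passed in GB vs. CON with GC, 0 with GC and block and 10 without CON replicate 2 and GA replicate 3, and 5 passed in GB vs. GA with either median-of-ratios version. Of all genes, 11.7%, 4.09%, 29.2% and 26.9% passed there, in the same order, against 33.5% (GB vs. CON) and 29.0% (GB vs. GA) as reported. Of the assembly factors, 1 passed in GB vs. CON with GC, with or without the block, and was then a DEG. In GB vs. GA, 3 passed without CON replicate 2 and GA replicate 3, where 25.7% of all genes did. Of the mitochondrial RNA genes, 2 passed in GB vs. CON with GC, with or without the block. With single libraries left out, 0 to 1 assembly factors passed in GA vs. CON and 3 to 5 in GB vs. GA (3 without GA replicate 2, GA replicate 3 or GB replicate 1), and 5 to 9 (5 without GB replicate 3) and 5 to 10 (5 without GA replicate 2) mitochondrial RNA genes passed relative to CON and relative to GA. Of all genes, 0.0556% to 0.62% passed in GA vs. CON in these fits without single libraries. The share was 26.4% to 32.3% in GB vs. CON and 21.7% to 32.6% in GB vs. GA. The Pearson r of fall and level was −0.257 and −0.064 over 13 genes and −0.203 and −0.099 without ND1. NDUFB4 (0.040) and NDUFV1 (0.032) changed sign in GB vs. CON with GC and block. The cause of these changes was not tested.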
